A study of Oryza sativa with 12 samples.

Results

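Among the long non-coding RNAs (lncRNAs) of rice leaves, 13 loci list transcripts of both classes that the deposited tables distinguish, lincRNA and antisense lncRNA. They were chosen by these class labels alone, as every locus identifier with at least 1 transcript of each class, and they hold 45 of the 1485 listed transcripts and 13 of the 1039 loci. Of the 45 transcripts, 19 are lincRNAs and 26 are antisense lncRNAs. There are 5 loci with 2 transcripts, 3 with 3, 1 with 4, 3 with 5 and 1 with 7. A further 198 loci list 2 or more transcripts of a single class and serve as the comparison, and 828 loci list 1 transcript.

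The samples were leaves of Oryza sativa at the booting stage, when the young panicle swells inside the flag leaf sheath. The design crossed the cultivars Kongyu131 and Dongnong422 with control and cold treatment, with 3 libraries in each of the 4 groups. Plants grew outdoors, and the cold treatment was 13 days in an incubator at 17 °C under a cycle of 16 h light and 8 h dark. The labels attach that treatment text to the controls as well, so where the controls stood is not given, and temperature and incubator cannot be told apart. A leaf was taken per bucket, and nothing says that replicates came from separate plants, so p-values here rest on differences among libraries that may be technical. In whole leaves, fewer cells of a type and less RNA per cell cannot be told apart.

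A lincRNA lies between protein-coding genes, whereas an antisense lncRNA is transcribed from the strand opposite a gene and overlaps it. Cufflinks gathers overlapping transcripts of a strand into a locus, so a locus can hold a longer or shifted form that reaches a gene on the other strand beside a form that does not. Antisense lncRNAs can act on the gene they overlap, as COOLAIR does at the flowering repressor FLC of Arabidopsis during long cold, and lincRNAs can act on distant genes or on chromatin. Cold at the booting stage is known for damaging pollen formation in rice. The tables give neither symbols nor positions for these transcripts, and 0 of their identifiers matched the RefSeq table of rice genes, so the opposite genes are not named here and no gene list could be tied to the loci.

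Levels are given as the deposited FPKM (fragments per kilobase of transcript, scaled to library size). The members were low. Their median of mean FPKM over the 12 libraries was 0.332, against 0.379 in the other loci with 2 or more transcripts and 1.17 in loci with 1 transcript. The medians of the classes in the 13 loci were close, at 0.347 FPKM for the lincRNAs and 0.306 FPKM for the antisense lncRNAs, and 8 of the 45 transcripts reached a mean of 1 FPKM. The summed level of all 45 ran from 24.7 to 27.7 FPKM in the Kongyu131 control libraries, from 25.2 to 26.5 in the Kongyu131 cold libraries, from 28.6 to 36.6 in the Dongnong422 control libraries and from 21.0 to 26.8 in the Dongnong422 cold libraries. In Kongyu131 these ranges overlapped, and in Dongnong422 every cold library lay below every control library. The median of all listed lncRNAs did the same in Dongnong422, at 0.588 to 0.677 FPKM in control and 0.553 to 0.585 FPKM in cold libraries. The sum also includes XLOC_022181, with a mean total of 11.7 FPKM in Dongnong422 control and 6.97 FPKM in cold libraries, a change that did not pass.

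On the third principal component of all lncRNAs tested, the library of Kongyu131 cold replicate 3 lay away from its group, at 1.24 against −17.0 and −17.8 for the other cold replicates. Where a call on a single transcript, total or class ratio ended without this library, that is stated. For the class ratio and total of XLOC_017288 in Kongyu131 the values without it are given. Of the 540 member values, 7 were exactly 0 and 88 were above 0 but under 0.001 FPKM. Such near-zero values made up 16.3% of the values in the 13 loci and 16.7% in the other loci with 2 or more transcripts, but 0.684% in loci with 1 transcript. Cufflinks shares out reads that several overlapping transcripts could have produced, and the depth behind a value is unknown.

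The first question was which class was the more abundant within a locus. Averaged over the groups, antisense transcripts were the higher class in 6 loci and lincRNAs in 2. These counts include XLOC_052318 and XLOC_017288, where the higher class differed between groups, as described below. The measure was the log2 ratio of the summed lincRNA FPKM to the summed antisense FPKM with 0.1 FPKM added to each, averaged over the 4 groups and compared with 0 by limma, with Benjamini-Hochberg adjustment over the 194 loci with 2 or more transcripts that could be tested. In the single-class loci the first listed transcript was set against the rest. An adjusted p under 0.05 was reached by 8 of the 13 class ratios, 6 below and 2 above 0. Of all 194 loci, 64.4% passed in either direction, 48.5% below and 16% above 0. In the single-class loci the ratio depends on the listing order and on how many transcripts are summed, so nothing is read from these shares. The class sums do not hold equal numbers of transcripts, and with the highest transcript of each class in place of the sums 5 of the 13 passed. The calls that ended were those of XLOC_013548, XLOC_017288 and XLOC_052318. In that setting the single-class loci set their highest transcript against the next highest, so the 64.4% does not apply to it.

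The antisense side led most evenly in XLOC_011042 and XLOC_050605, where the same antisense transcript was the highest of its locus in 12 of 12 libraries. In XLOC_011042, with 2 lincRNAs and 3 antisense transcripts, that transcript was LNC_000216. It stood at 1.33, 1.97 and 1.16 FPKM in Kongyu131 controls, 1.59, 1.49 and 2.02 in Kongyu131 cold, 0.791, 2.13 and 2.00 in Dongnong422 control and 1.57, 1.04 and 2.35 in Dongnong422 cold libraries. Its highest lincRNA, LNC_000215, stood at 0.457, 0.591 and 0.341 FPKM, 0.772, 0.560 and 0.623 FPKM, 0.317, 0.448 and 0.369 FPKM, and 0.582, 0.597 and 0.445 FPKM in the same order of groups. Every LNC_000216 value lay above every LNC_000215 value, and no difference between groups passed the test for either. The class ratio of this locus was −1.30 on the log2 scale (SE 0.198, limma adjusted p = 0.000152). With 1 FPKM added the ratio was −0.75 here, −0.51 in XLOC_008588, −0.55 in XLOC_022898 and 0.36 in XLOC_031570, each still called.

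In XLOC_008588 the antisense LNC_000175 exceeded the lincRNA LNC_000176 in 11 of 12 libraries. LNC_000175 stood at 1.06, 0.703 and 0.750 FPKM in Kongyu131 controls, 0.752, 0.766 and 0.995 in Kongyu131 cold, 0.951, 0.993 and 0.937 in Dongnong422 control and 0.793, 0.529 and 0.684 in Dongnong422 cold libraries. LNC_000176 stood at 0.153, 0.338 and 0.248 FPKM, at 0.198, 0.418 and 0.240, at 0.316, 0.300 and 0.0782, and at 0.158, 0.535 and 0.372. The exception was Dongnong422 cold replicate 2, where the lincRNA held 50.3% of the locus. The locus total was the steadiest of the 13, between 0.950 and 1.29 FPKM in all libraries, and the class ratio was −1.35 (SE 0.209, limma adjusted p = 0.000175).

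The antisense LNC_000611 of XLOC_022898 was the highest transcript in 10 of 12 libraries. It stood at 0.637, 0.671 and 0.379 FPKM in Kongyu131 controls, 0.441, 0.794 and 0.684 in Kongyu131 cold, 0.773, 0.418 and 0.422 in Dongnong422 control and 0.725, 0.328 and 0.685 in Dongnong422 cold libraries. Its lincRNA LNC_000609 stood at 0.482, 0.133 and 0.394 FPKM in Kongyu131 control and 0.331, 0.549 and 0.450 in Dongnong422 cold libraries. In Kongyu131 cold and Dongnong422 control libraries it was more uneven, with 0.147 and 0.194 beside a value under 0.001 FPKM, and 0.226 and 0.381 beside another. The class ratio was −1.53 (SE 0.265, limma adjusted p = 0.000365).

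XLOC_031570 was the opposite case, with its lincRNA LNC_000841 above its antisense LNC_000840 in 9 of 12 libraries. LNC_000841 stood at 0.185, 0.712 and 0.437 FPKM in Kongyu131 controls, 0.297, 0.227 and 0.526 in Kongyu131 cold, 0.647, 0.701 and 0.957 in Dongnong422 control and 0.658, 0.348 and 0.695 in Dongnong422 cold libraries. LNC_000840 stood at 0.483, 0.0806 and 0.226 FPKM, 0.341, 0.248 and 0.177, 0.273, 0.145 and 0.0628, and 0.0358, 0.0710 and 0.132. All 3 libraries in which the antisense form was higher were of Kongyu131, and the lincRNA share of the locus was 70.3% or more in every Dongnong422 library. The class ratio was 1.15 (SE 0.274, limma adjusted p = 0.00314). Its difference between the cultivars, 1.38 averaged over treatments, did not pass (SE 0.548, limma adjusted p = 0.217).

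In XLOC_013548, with 2 lincRNAs and 5 antisense transcripts, 5 different transcripts were the highest of the locus in 1 library or another. The antisense LNC_000308, its highest by mean, stood at 1.12 FPKM, under 0.001 and 0.226 in Kongyu131 control, 0.658, under 0.001 and 0.0882 in Kongyu131 cold, 1.09, 0.855 and 0.0468 in Dongnong422 control and 0.0502, 0.0962 and 0.426 in Dongnong422 cold libraries. The lincRNA LNC_000312 stood at 0.578 FPKM, under 0.001 and 0.322, at 1.01, 0.231 and 0.104, at 0.423, 0.535 and 0.356, and under 0.001, under 0.001 and 0.108. These values were scattered within groups, and most groups of either transcript overlapped. For LNC_000312 every Dongnong422 cold library lay below every Dongnong422 control library, a change that limma did not call. The class ratio of −1.06 (SE 0.368, limma adjusted p = 0.0253) was −0.09 (adjusted p = 0.783) with the highest transcript of each class, −0.38 and −1.68 with 1 and 0.01 FPKM added, and it did not pass when cold replicate 2 or 3 of Kongyu131 or control replicate 1 or cold replicate 2 of Dongnong422 was left out (log2 ratios from −0.95 to −0.999, with adjusted p from 0.0528 to 0.0593).

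The other 5 loci gave no call on the class ratio averaged over groups. In XLOC_025138, whose transcripts are the lincRNA LNC_000673 and the antisense LNC_000672, a single transcript held nearly the whole locus in 11 of 12 libraries. The lincRNA share was at least 99.98% in 4 of these and at most 0.0790% in the others, and it was 11.5% in Dongnong422 control replicate 1. The locus was the weakest of the 13, with totals from 0.0872 to 0.747 FPKM. In XLOC_022026 the share of the lincRNA LNC_000570, beside the antisense LNC_000569, ran from 0.0108% to 91.1% of the locus total. In XLOC_049600, with the lincRNA LNC_001255 and the antisense LNC_001254, it ran from 17.0% to 74.3%. In XLOC_053041, whose highest transcripts were the lincRNA LNC_001342 and the antisense LNC_001339, the summed lincRNA share ran from 27.7% to 86.9%. In none of these 4 was any transcript called in any comparison.

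**Figure D1:**
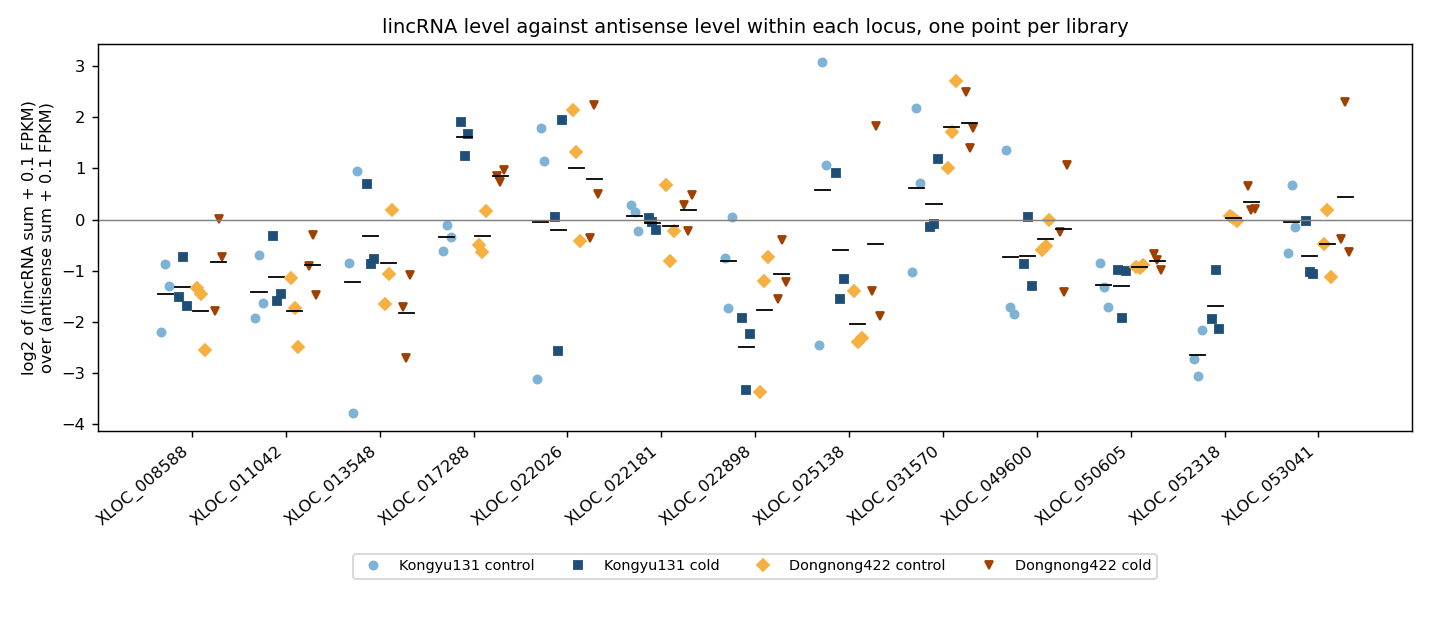
Log2 ratio of the summed lincRNA to the summed antisense level, with 0.1 FPKM added to each, in the 13 loci on the x axis, with a point per library in the colour of its group and a bar at the mean of 3 libraries. All points of XLOC_011042 and XLOC_050605 lie below 0, XLOC_017288 separates cold from control libraries, and XLOC_052318 separates Kongyu131 from Dongnong422.

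Sums over a locus varied less between replicates than the transcripts in it. The spread was taken as the SD between libraries of a group on the log2(FPKM + 0.1) scale, pooled over the groups. In 11 of the 13 loci the total had a lower SD than the median of the transcripts, and in 9 it had a lower SD than each of them. The exceptions to the first count were XLOC_017288 and XLOC_052318. The median SD was 0.686 for the 45 transcripts and 0.360 for the 13 totals. The same held in the other loci with 2 or more transcripts, at 0.740 and 0.355. In XLOC_013548 the SDs of the transcripts ran from 0.730 to 1.51 and that of the total was 0.360.

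**Figure D2:**
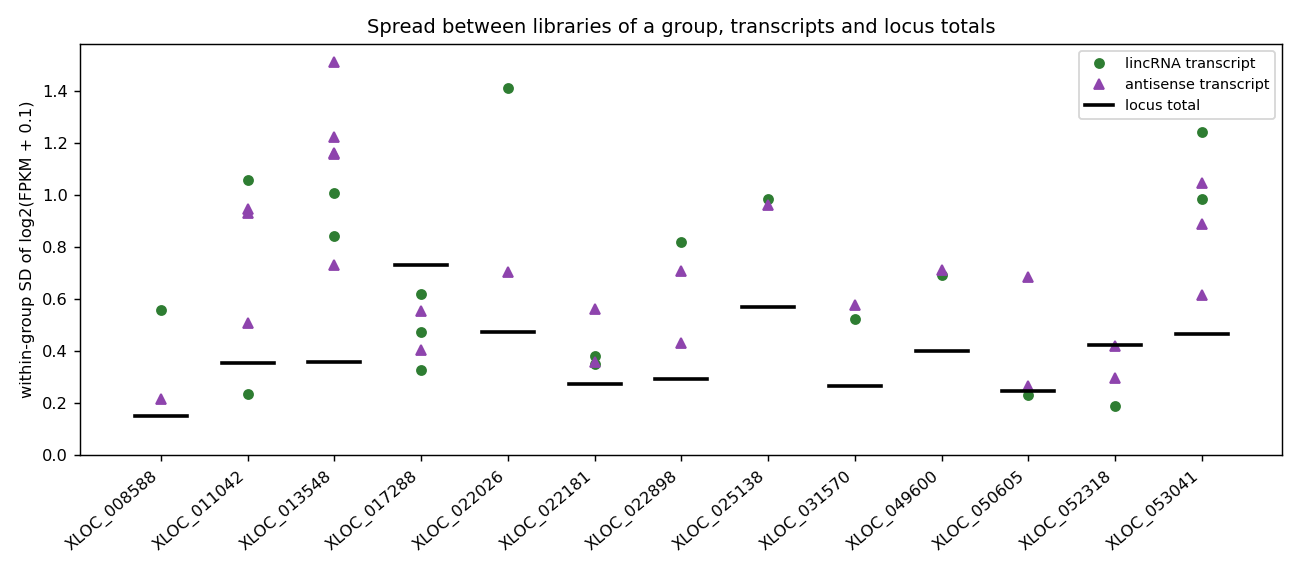
Within-group SD of log2(FPKM + 0.1) for each lincRNA and antisense transcript (points) and for the locus total (bars) of the 13 loci. The bar lies below every point in 9 loci, and above every point in XLOC_017288 and XLOC_052318.

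Between the cultivars, every call lay in 3 of the 13 loci. In control leaves 9 of the 44 member transcripts that passed a minimum mean of 0.1 FPKM were called, 6 lower and 3 higher in Dongnong422, against 5.83% lower and 6.52% higher of all 1441 lncRNAs tested. The transcript that did not pass that minimum was LNC_000309 of XLOC_013548. In cold leaves 5 of the 44 were called, 1 lower and 4 higher, against 8.05% and 9.23% of all. All calls at transcript level came from limma on log2(FPKM + 0.1), with adjustment over the 1441. The loci were XLOC_017288, XLOC_052318 and XLOC_050605, and transcripts of a locus share its reads, so these counts rest on 3 loci rather than on separate genes. Of the 13 totals, averaged over treatments, 1 was lower and 2 were higher in Dongnong422, in the same loci, against 9.94% and 12.1% of all 1036 totals tested.

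In XLOC_017288 lincRNAs and antisense transcripts were all lower in Dongnong422. The locus total was 3.69, 3.40 and 2.95 FPKM in the Kongyu131 controls, and 1.95, 1.72 and 0.650 FPKM in Kongyu131 cold libraries. In Dongnong422 it was 0.0404, 0.0905 and 0.562 FPKM in control and 0.185, 0.163 and 0.0953 FPKM in cold libraries. Every Dongnong422 total lay below every Kongyu131 total. Averaged over treatments the total was 8.70-fold lower in Dongnong422 on the log2(FPKM + 0.1) scale (log2 change −3.12, SE 0.383, limma adjusted p = 6.43e-05 over 1036 loci), and with 1 FPKM added the log2 change was −1.44.

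In control leaves all 5 of its transcripts were called, each lower in Dongnong422. The antisense LNC_000447, the highest of its class, stood at 1.71, 1.28 and 1.00 FPKM in Kongyu131 controls, while in Dongnong422 control it was listed at 0 once and at 0.0763 and 0.224 FPKM. The lincRNA LNC_000450 stood at 0.575, 0.730 and 0.598 FPKM in Kongyu131 control and was listed at 0, 0 and 0.107 FPKM in Dongnong422 control. For neither did the groups overlap. The log2 changes were −2.97 for LNC_000447 (SE 0.475, adjusted p = 0.000779) and −2.52 for LNC_000450 (SE 0.423, adjusted p = 0.00115). Those of the other 3 were −2.40 for the antisense LNC_000446, −2.01 for the lincRNA LNC_000448 and −1.96 for the lincRNA LNC_000449, with limma adjusted p of 0.00224, 0.00747 and 0.0290. With 1 FPKM added the 5 changes lay between −0.41 and −1.08, and with 0.01 FPKM added between −4.09 and −4.82. The call of LNC_000449 ended with the 6 control libraries alone (adjusted p = 0.0830) and without Kongyu131 control replicate 1 or 2 or Dongnong422 control replicate 1 or 2 (log2 changes of −1.71, −2.05, −1.70 and −1.70, adjusted p from 0.0670 to 0.104).

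In cold leaves LNC_000450 alone of the 5 was called. This lincRNA stood at 0.965, 0.823 and 0.330 FPKM in Kongyu131 and at 0.0514, 0.0700 and 0.0530 FPKM in Dongnong422 (log2 change −2.25, SE 0.423, limma adjusted p = 0.00256). The groups did not overlap. With 1 FPKM added the change was −0.67. The other 4 had log2 changes of −0.95 to −1.33 and adjusted p from 0.0577 to 0.208.

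In XLOC_052318 each cultivar had 1 transcript below 0.001 FPKM, a lincRNA in Kongyu131 and an antisense transcript in Dongnong422. The lincRNA LNC_001324 stood at 0.699, 0.555 and 0.723 FPKM in Dongnong422 control and 0.844, 0.521 and 0.817 FPKM in Dongnong422 cold libraries, and all 6 Kongyu131 values were under 0.001 FPKM, the highest 3.37e-05. The antisense LNC_001323 was the reverse, with 0.537, 0.592 and 0.294 FPKM in the controls of Kongyu131, and 0.211, 0.0451 and 0.268 FPKM in its cold libraries, and all 6 Dongnong422 values under 0.001 FPKM, the highest 2.66e-06. The remaining antisense transcript, LNC_001322, was present in both, at 0.0235, 0.133 and 0.0502 FPKM and 0.0749, 0.0542 and 0.0743 FPKM in the controls and cold libraries of Kongyu131, and at 0.664, 0.538 and 0.735 FPKM and 0.502, 0.445 and 0.694 FPKM in Dongnong422. For each of the 3, the cultivars did not overlap in any library.

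In control leaves all 3 transcripts of XLOC_052318 were called. The lincRNA LNC_001324 and the antisense LNC_001322 were higher in Dongnong422 by 2.92 (SE 0.316, limma adjusted p = 2.62e-05) and 2.19 (SE 0.332, adjusted p = 0.000542) on the log2 scale. The antisense LNC_001323 had a log2 change of −2.48 (SE 0.458, adjusted p = 0.00246). In cold leaves LNC_001324 and LNC_001322 were again higher, by 3.02 (SE 0.316, adjusted p = 2.21e-05) and 1.93 (SE 0.332, adjusted p = 0.00131), and LNC_001323 had a change of −1.35 that did not pass (adjusted p = 0.0690). With 1 and 0.01 FPKM added the control change of LNC_001324 was 0.73 and 6.05, that of LNC_001323 −0.55 and −5.54 and that of LNC_001322 0.62 and 3.30. In cold leaves it was 0.78 and 6.17 for LNC_001324, and 0.53 with 1 FPKM added for LNC_001322.

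The class balance of XLOC_052318 differed between the cultivars. The lincRNA held 49.6% to 62.7% of the locus total in Dongnong422 libraries and at most 0.00601% in Kongyu131 libraries. The log2 ratio of the classes was higher in Dongnong422 by 2.36 averaged over treatments (SE 0.298, limma adjusted p = 0.00067), 1 of 13 class ratios, against 5.67% of the 194 loci. It was 0.55 and 5.32 with 1 and 0.01 FPKM added and 0.91 with the highest transcript of each class. Within control leaves the difference was 2.67 (adjusted p = 0.00367), where 5.15% of the 194 were called, with 0.63 and 5.76 for 1 and 0.01 FPKM added. Within cold leaves, where 1.55% were called, it was 2.04 (adjusted p = 0.0343), with 0.47 and 4.89 for 1 and 0.01 FPKM added. The cold-leaf call ended with 1 FPKM added (adjusted p = 0.135), and when any of 6 libraries was left out, namely cold replicates 1 and 3 of Kongyu131 and of Dongnong422 and control replicates 1 and 2 of Dongnong422 (differences of 1.82 to 2.12, adjusted p from 0.0661 to 0.0977). The locus total was also higher in Dongnong422, by 1.61 averaged over treatments (SE 0.244, limma adjusted p = 0.000379) and by 0.73 with 1 FPKM added. In cold leaves this total was higher by 2.06 (SE 0.345, limma adjusted p = 0.000891) and in control leaves by 1.16 (SE 0.345, adjusted p = 0.0434). The control call ended with 0.01 FPKM added (1.30, adjusted p = 0.0901). It also ended when any of 8 libraries was left out (0.92 to 1.28, adjusted p from 0.0529 to 0.156).

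In XLOC_050605 transcripts of both classes were higher in Dongnong422, and no shift of their balance passed. The lincRNA LNC_001286 stood at 0.945, 0.844 and 0.735 FPKM in Kongyu131 controls, 0.351, 0.298 and 0.519 in Kongyu131 cold, 2.58, 2.26 and 1.79 in Dongnong422 control and 1.20, 1.23 and 1.45 in Dongnong422 cold libraries. The antisense LNC_001284 stood at 1.77, 1.96 and 2.45 FPKM, 0.708, 1.16 and 0.970, 4.48, 3.71 and 3.07, and 1.91, 2.14 and 2.67 in the same order. Within each treatment the cultivars did not overlap for either transcript. LNC_001286 was higher in Dongnong422 by 1.29 in control (SE 0.256, limma adjusted p = 0.00434) and 1.53 in cold leaves (SE 0.256, adjusted p = 0.00104), and LNC_001284 by 0.83 in control, which did not pass (SE 0.262, adjusted p = 0.0630), and 1.17 in cold leaves (SE 0.262, adjusted p = 0.00821). With 1 FPKM added the 3 calls were 0.80 and 0.72 for LNC_001286 in control and cold leaves and 0.74 for LNC_001284 in cold leaves.

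The total of XLOC_050605 was 3.05 ± 0.318 FPKM in Kongyu131 controls, 1.502 ± 0.310 in Kongyu131 cold, 6.49 ± 1.21 in Dongnong422 control and 3.67 ± 0.640 in Dongnong422 cold leaves (SD, n = 3 each). Averaged over treatments it was 2.22-fold higher in Dongnong422 (log2 change 1.15, SE 0.166, limma adjusted p = 0.000265), at 1.06 to 1.22 on the log2 scale without single libraries. The lincRNA share lay between 17.5% and 34.8% in Kongyu131 libraries, and between 32.9% and 37.7% in those of Dongnong422. The class ratio differed by 0.42 between cultivars, which did not pass (SE 0.282, limma adjusted p = 0.505), and was below 0 in 12 of 12 libraries, at −1.08 on average (SE 0.141, adjusted p = 5.09e-05, and −0.66 with 1 FPKM added).

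**Figure D3:**
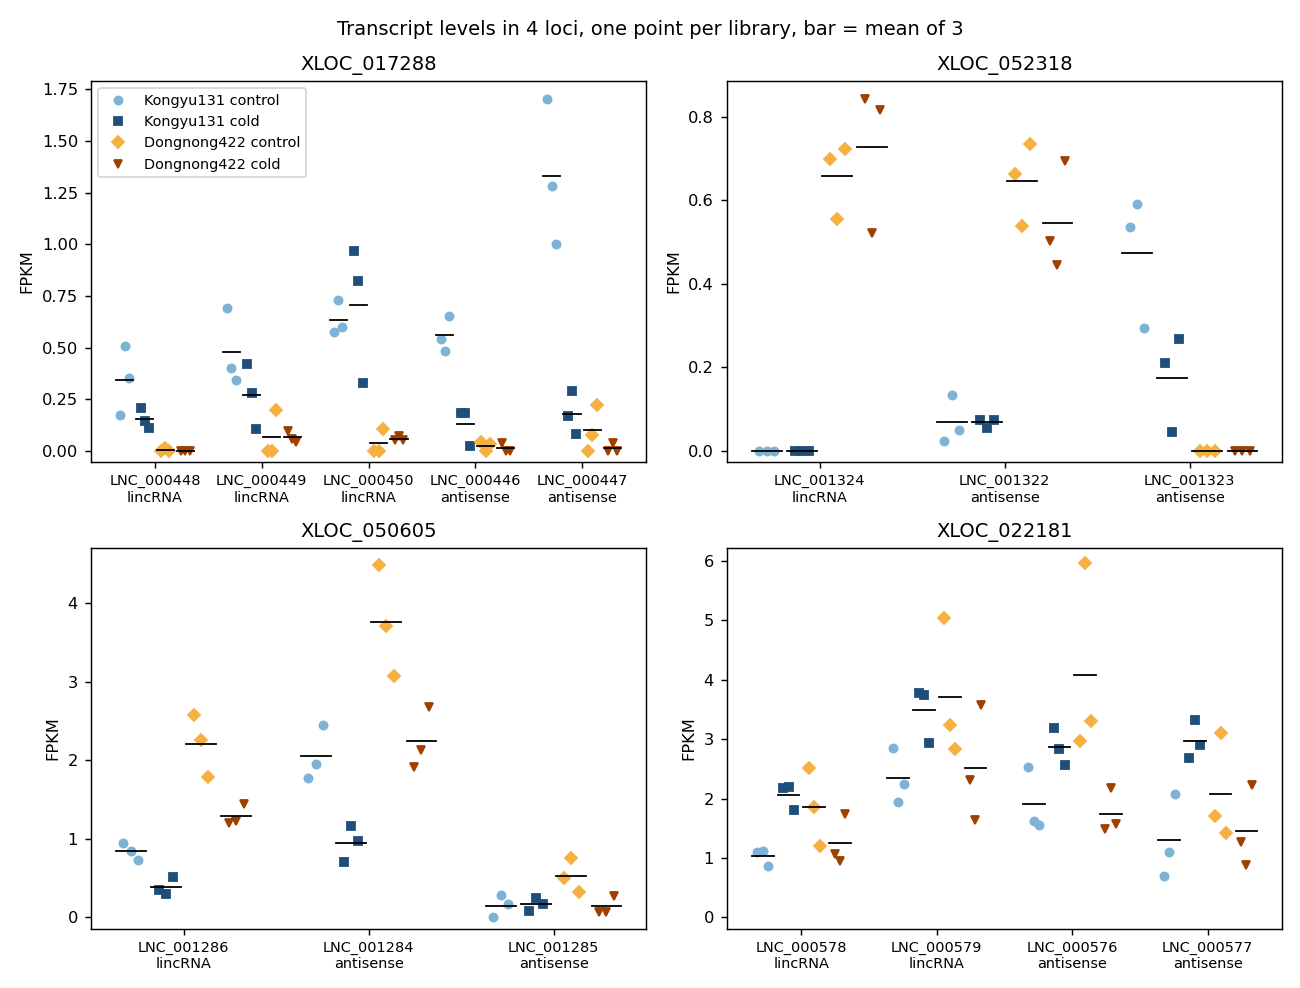
FPKM of every transcript of 4 loci, with a point per library in the colour and shape of its group and a bar at the mean of 3 libraries. XLOC_017288 is low in Dongnong422, LNC_001324 and LNC_001323 of XLOC_052318 are near 0 in opposite cultivars, LNC_001286 and LNC_001284 of XLOC_050605 are lower in cold libraries of both cultivars, and XLOC_022181 is higher in the cold in Kongyu131 and mostly lower in Dongnong422.

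Few transcripts were called for cold, among the members and among all lncRNAs. In Kongyu131, 4 of 44 member transcripts (9.09%) fell and 0 rose, against 5.41% of all 1441 lncRNAs that fell and 1.87% that rose. The 4 were LNC_001284 and LNC_001286 of XLOC_050605 and the antisense LNC_000446 and LNC_000447 of XLOC_017288. In Dongnong422 limma called 0 of 44, against 4.86% of all, and 5 had an unadjusted p under 0.05, against 23.8% of all. On average over the cultivars 3 fell and 0 rose, against 8.74% and 3.89% of all, and the difference of cold effects was called by limma for 0 of 44, against 0.416% of all. At an unadjusted p under 0.05 that difference was reached by 8 of the 44, against 15.3% of all. For the class ratio that difference was called by limma for 0 of 13, against 0% of the 194, and 1 had an unadjusted p under 0.05, against 9.28% of the 194. The median log2 change on average was −0.16 over the members and −0.15 over all lncRNAs. With median-ratio scaling and quantile normalization the median of all moved to −0.03 and −0.01 and that of the members to −0.07 and 0.00.

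In XLOC_050605 the lincRNA LNC_001286 and 1 of the 2 antisense transcripts, LNC_001284, fell on average over the cultivars. In each cultivar every cold library was below every control library for LNC_001286 and LNC_001284, whose values are given above. Averaged over cultivars LNC_001286 had a log2 change of −0.84 (SE 0.181, limma adjusted p = 0.0150, and −0.44 with 1 FPKM added) and LNC_001284 of −0.89 (SE 0.185, adjusted p = 0.0136). The second antisense transcript, LNC_001285, had values of at most 0.752 FPKM and did not pass in either cultivar, with a change of 0.26 in Kongyu131 (SE 0.551, adjusted p = 0.875) and −1.43 in Dongnong422 (SE 0.551, adjusted p = 0.144). The total fell 1.86-fold (log2 change −0.90, SE 0.166, limma adjusted p = 0.00593) and the class ratio had a change of 0.04 (SE 0.282, adjusted p = 0.942). The difference of cold effects on the total between the cultivars did not pass (difference 0.19, SE 0.332, adjusted p = 0.796).

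Within a cultivar these calls were near the threshold. In Kongyu131 the log2 changes were −1.06 for LNC_001284 (limma adjusted p = 0.0415) and −0.96 for LNC_001286 (adjusted p = 0.0462), and in Dongnong422 both were −0.72 (adjusted p = 0.123 and 0.113). The Kongyu131 call of LNC_001284 ended without any of the 6 libraries of that cultivar and without Dongnong422 cold replicate 1 or 2 (log2 changes of −0.88 to −1.20, adjusted p from 0.0518 to 0.134). That of LNC_001286 ended without any library other than Kongyu131 cold replicate 3 (−0.83 to −1.05, adjusted p from 0.0507 to 0.145). Both ended with median-ratio scaling (0.0917 and 0.0611), quantile normalization (0.0865 and 0.0866), no variance trend (0.0589 and 0.0650) and the 6 libraries alone (0.103 and 0.162). With 1 FPKM added the changes were −0.65 for LNC_001284 and −0.41 for LNC_001286, the second without a call (adjusted p = 0.0964), which also ended with 0.01 FPKM added (−1.12, adjusted p = 0.0503). The total of XLOC_050605 was 1 of 13 that fell in Kongyu131 (−0.99, SE 0.235, limma adjusted p = 0.0298), against 8.69% of all 1036, and it also passed in Dongnong422 (−0.80, SE 0.235, adjusted p = 0.0473). Both of these ended with median-ratio scaling (adjusted p = 0.0641 and 0.135) and quantile normalization (0.0649 and 0.0891), and the second with no variance trend (0.0584). The Kongyu131 call on the total also ended when control replicate 2 or 3 or cold replicate 1 or 2 of Kongyu131 was left out (−0.82 to −1.08, adjusted p from 0.0588 to 0.0968). The Dongnong422 call on the total ended without any library other than Kongyu131 cold replicate 1 and Dongnong422 cold replicate 3 (−0.68 to −0.95, adjusted p from 0.0541 to 0.131).

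In XLOC_017288 the antisense transcripts fell in Kongyu131 and the lincRNAs did not pass. LNC_000447 went from 1.71, 1.28 and 1.00 FPKM in control to 0.167, 0.289 and 0.0789 FPKM in cold libraries, 5.29-fold lower on the log2(FPKM + 0.1) scale. LNC_000446 went from 0.541, 0.485 and 0.651 FPKM to 0.185, 0.182 and 0.0236 FPKM. In both cases all cold libraries were below all control libraries. The lincRNAs LNC_000448, LNC_000449 and LNC_000450 had log2 changes of −0.74, −0.70 and 0.04 (limma adjusted p = 0.346, 0.489 and 1), and their groups overlapped.

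The log2 change of LNC_000447 in Kongyu131 was −2.40 (SE 0.475, limma adjusted p = 0.0194) and −0.98 with 1 FPKM added. Its call ended with 0.01 FPKM added (−2.97, adjusted p = 0.154), with the 6 libraries alone (0.0645) and without Kongyu131 control replicate 2 (−2.41, 0.0625) or cold replicate 1 (−2.41, 0.0602). On average over cultivars it was −1.55 (SE 0.336, adjusted p = 0.0151), with −0.55 and −2.39 for 1 and 0.01 FPKM added, where the smaller pseudocount gave no call (adjusted p = 0.0805). The change of LNC_000446, −1.61 (SE 0.439, adjusted p = 0.04995), passed with the narrowest margin and lost its call without each of the 12 libraries in turn (−1.21 to −1.81, adjusted p from 0.0522 to 0.134). It was −0.47 with 1 FPKM added, and the call also ended with 0.01 FPKM added (−2.39, adjusted p = 0.194), median-ratio scaling (0.0738), quantile normalization (0.0820) and the 6 libraries alone (0.121). The difference of cold effects between the cultivars did not pass for LNC_000447 or LNC_000446 (adjusted p = 0.266 and 0.286).

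The class balance of XLOC_017288 shifted with cold. The lincRNA share of the locus was 39.1%, 48.0% and 43.9% in Kongyu131 control and 81.9%, 72.6% and 84.2% in Kongyu131 cold libraries. In Dongnong422, where the total was at most 0.562 FPKM, it was 0%, 15.7% and 54.0% in control and 79.7%, 77.7% and 100% in cold libraries. In both cultivars every cold library was above every control library. The Dongnong422 shares of 0% and 100% came from totals of 0.0404 and 0.0953 FPKM, under the 0.1 FPKM added for the ratio. Averaged over the cultivars the log2 class ratio rose by 1.56 (SE 0.251, limma adjusted p = 0.00679), 1 of 2 ratios called among the 194 loci tested, which is 1.03%, and the single one among the 13. With 0.01 FPKM added it was 2.93, and with 1 FPKM added it was 0.54 and did not pass (adjusted p = 0.0523).

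Within Kongyu131 the ratio rose by 1.96 (SE 0.354, limma adjusted p = 0.0282), where 1.55% of the 194 were called, and within Dongnong422 it was higher by 1.16 without passing (SE 0.354, adjusted p = 0.227). The difference of cold effects, −0.79, did not pass (SE 0.501, adjusted p = 0.813). Without Kongyu131 cold replicate 3, whose locus total of 0.650 FPKM was the lowest of its group, the Kongyu131 value was 1.92 (adjusted p = 0.0546). The call also ended when Kongyu131 libraries control 2, control 3, cold 1 or cold 2 or Dongnong422 library cold 1 was left out (1.81 to 2.14, adjusted p from 0.0533 to 0.128), and with 0.01 FPKM added (2.32, 0.344). With 1 FPKM added it was 0.91. The Dongnong422 value was 0.16 and 3.54 with 1 and 0.01 FPKM added. Averaged over the cultivars, the rise was called without each of the 12 libraries in turn, at 1.48 to 1.68. The locus total had a Kongyu131 change of −1.29 (adjusted p = 0.149), which was −0.83 without Kongyu131 cold replicate 3 and −0.87 with 1 FPKM added, where it passed (adjusted p = 0.0295).

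XLOC_017288 had a positive mean class ratio, 0.45 (SE 0.125, limma adjusted p = 0.00823), that combined ratios below 0 in 5 of 6 control libraries with ratios above 0 in 6 of 6 cold libraries. This mean lost its call with the highest transcript of each class (0.15, adjusted p = 0.400) and with 1 and 0.01 FPKM added (0.14 and 0.62, 0.0541 and 0.0520). In XLOC_052318 the mean of −0.99 (SE 0.149, adjusted p = 0.000141) combined ratios between −3.04 and −0.99 in Kongyu131 with ratios between −0.02 and 0.65 in Dongnong422. It was −0.19 and −2.45 with 1 and 0.01 FPKM added and lost its call with the highest transcript of each class (−0.27, adjusted p = 0.0672).

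XLOC_022181, the most abundant of the 13 loci, had higher totals in the cold in Kongyu131 and mostly lower ones in Dongnong422, but neither change passed. Its total was 7.18, 5.78 and 6.75 FPKM in the controls of Kongyu131, and 11.8, 12.1 and 10.2 FPKM in its cold libraries, without overlap. In Dongnong422 it was 12.2, 14.2 and 8.77 FPKM in control and 6.13, 5.66 and 9.12 FPKM in cold libraries, where cold replicate 3 lay above control replicate 3. The 2 lincRNAs, LNC_000579 and LNC_000578, and the 2 antisense transcripts, LNC_000576 and LNC_000577, all had log2 changes above 0 in Kongyu131 (0.56, 0.94, 0.59 and 1.25) and below 0 in Dongnong422 (−0.57, −0.52, −1.13 and −0.50). The lincRNA share stayed between 36.0% and 61.8%, with a class ratio of 0.01 averaged over groups (SE 0.149, adjusted p = 0.946).

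On the total of XLOC_022181 the change was 0.78 in Kongyu131 (SE 0.248, limma adjusted p = 0.0621) and −0.75 in Dongnong422 (SE 0.248, adjusted p = 0.0711), and their difference was −1.53 (SE 0.350, adjusted p = 0.0518). For that difference limma called 0 of 13 totals, against 1.64% of all 1036, and 2 had an unadjusted p under 0.05, against 18.4% of all. For the 4 transcripts the difference ran from −1.13 to −1.75 with adjusted p from 0.0980 to 0.278. The difference on the total passed without Dongnong422 control replicate 3 (−1.73, adjusted p = 0.0476) or cold replicate 3 (−1.74, 0.0337). The change in Kongyu131 passed with median-ratio scaling (0.93, adjusted p = 0.0413), quantile normalization (1.06, 0.0340) or without Dongnong422 cold replicate 3 (0.78, 0.0481). That in Dongnong422 passed without its cold replicate 3 (−0.95, 0.0438), the library that lay above control replicate 3. None of these values on the total passed in the alternatives not named for it.

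Of the 13 totals, 2 fell with cold on average and 0 rose, against 14.6% and 7.14% of all 1036. Beside XLOC_050605 this was XLOC_013548, the locus whose 7 transcripts were scattered. Its total was 1.70, 1.27 and 0.759 FPKM in the controls of Kongyu131, and 1.79, 1.08 and 1.21 FPKM in its cold libraries, which overlapped. In Dongnong422 it went from 2.43, 2.03 and 1.89 FPKM in control to 0.777, 0.547 and 0.780 FPKM in cold libraries, without overlap. The log2 change within Dongnong422 was −1.47 (SE 0.301, limma adjusted p = 0.0136), −0.87 with 1 FPKM added, and −1.33 without a call without Dongnong422 cold replicate 2 (adjusted p = 0.0614). With XLOC_050605 it was 1 of 2 totals of the 13 called lower in Dongnong422, against 8.49% of all, and 0 of its 6 tested transcripts were called there.

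The average change of XLOC_013548, −0.66 (SE 0.213, limma adjusted p = 0.0484), was −0.39 with 1 FPKM added and lost its call with 0.01 FPKM added (−0.71, adjusted p = 0.0583), with median-ratio scaling (−0.51, 0.0746), quantile normalization (−0.48, 0.0775) and no variance trend (−0.66, 0.0546). It also lost it without any library other than Kongyu131 control replicate 3 and Kongyu131 cold replicate 1 (−0.54 to −0.70, adjusted p from 0.0634 to 0.106). The difference of cold effects between the cultivars on this total was −1.63 and did not pass (SE 0.426, adjusted p = 0.0848, and −0.95 with 1 FPKM added).

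**Figure D4:**
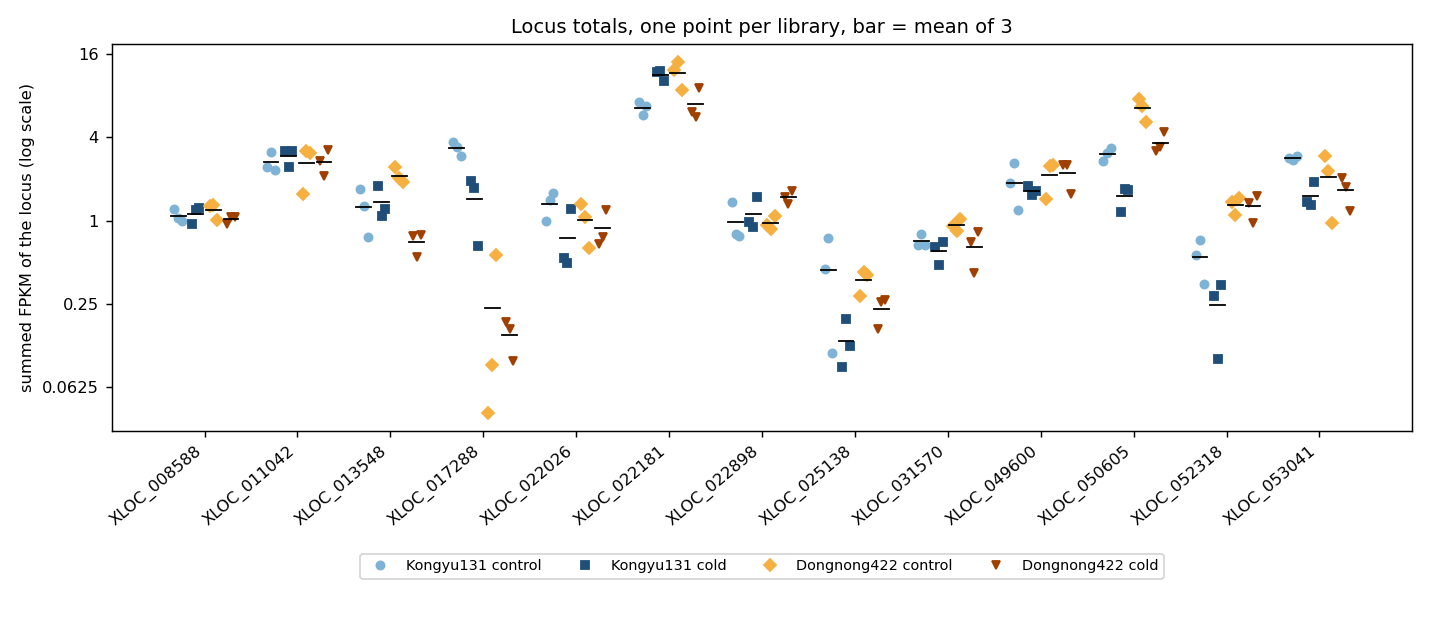
Summed FPKM of each of the 13 loci on a log scale, with a point per library in the colour and shape of its group and a bar at the mean of 3 libraries. XLOC_017288 spans from 3.69 FPKM in a Kongyu131 control library to 0.0404 FPKM in a Dongnong422 control library, and in XLOC_050605 the cold libraries lie below the control libraries of the same cultivar.

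The transcript-level cold calls in Kongyu131 were the least stable count. The count of 4 became 0 without Kongyu131 control replicate 2 or cold replicate 1, 1 without Kongyu131 control replicate 3, Kongyu131 cold replicate 2 or Dongnong422 cold replicate 1 or 2, and 2 without any of the other 6 libraries. Those called were among the original 4, except that without Kongyu131 control replicate 1 only 1 of the 2 was, LNC_000447. The cultivar calls were steadier, at 7 to 9 in control and 5 or 6 in cold leaves without any single library.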

How the data were processed

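Ribosomal RNA was removed from leaf RNA and libraries were built with a kit that keeps strand, per the labels' protocols. The submitters' processing notes name TopHat2 2.0.9 and Cufflinks 2.1.1. The sources used here give no genome build, annotation or class rule. They also do not say whether strand was used in counting, so an antisense value could hold reads of the gene opposite. The authors deposited FPKM values, 1 table per library. FPKM are relative to the library, so an abundant RNA lowers the rest. The highest mean listed was 463758 FPKM, for a lincRNA in a locus with 1 transcript. Low values shared no common step (at most 6.36% of single-transcript loci had the same ratio between 2 libraries, to 3 decimals), so read depth could not be recovered and counting error could not be computed. An exact 0 can be a failed estimate. A blank line in 1 table was left out.

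The analysis used log2(FPKM + 0.1), which understates changes of low transcripts, on features with a mean of at least 0.1 FPKM (both sides of a ratio). Group means of the 4 groups were modelled using limma 3.58.1 (R 4.3.3; moderated variances with a trend) for 1441 transcripts, 1036 locus totals and 194 within-locus ratios. A call is a two-sided Benjamini-Hochberg adjusted p under 0.05 within a contrast. The scripts were tested on simulated data with independent noise in each transcript. Those data do not hold the sharing of reads within a locus.

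Members and lists were chosen with earlier results of these data known. Each locus is named with its highest lincRNA and antisense transcript, with library values where something was called. XLOC_022181's values and the contrasts of totals and ratios within a cultivar or treatment were added after the values were seen. Alternatives were other pseudocounts, filters, scalings, class measures and designs, and leaving out each library.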

Additional observations from a re-analysis of the deposited data

How the results depend on the processing

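Of the 36 single calls on transcripts, on averaged totals and on averaged class ratios, 0 reversed under an alternative, and 25 stayed called under every alternative run for them. The 4 member transcripts called for cold in Kongyu131 became 2 with a mean of at least 1 FPKM or no variance trend, 1 with a pseudocount of 0.01 FPKM, median-ratio scaling or quantile normalization, 0 with the 6 libraries alone (8 at an unadjusted p under 0.05), and 0 to 2 without single libraries. For cold in Dongnong422 the 0 calls became 1 with a mean of at least 1 FPKM or quantile normalization. With that mean, 8 members were tested, and 3 were called between cultivars in control and 2 in cold leaves, where quantile normalization called 8. Of the totals, the count of 2 for cold became 1 with a pseudocount of 0.01 FPKM or no variance trend, and 1 to 3 without single libraries. It stayed 2 with median-ratio scaling and quantile normalization, where XLOC_013548 lost its call (adjusted p = 0.0746 and 0.0775) and another total gained one. The 8 class ratios that differed from 0 became 5 with the highest transcript of each class, and 1 with a mean of at least 1 FPKM, which left 2 ratios to test. The cold ratio call became 0 with a pseudocount of 1 FPKM or that mean, and the cultivar ratio call 0 with that mean. Where fewer features could be tested, the alternative's own construction shortens the list. Elsewhere the cause was not tested. LNC_000448 fell under the minimum mean without Kongyu131 control replicate 2 and has no value there.

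With the replicate number as a block, the count of transcripts called for cold in Kongyu131 became 1, and the counts of the other planned comparisons stayed within 1.5 times. By transcript, limma's adjusted p under the block was 0.0834 for LNC_000446, 0.0745 for LNC_001284 and 0.0864 for LNC_001286 in that comparison, and 0.0545 for LNC_000449 between cultivars in control. Within 1 cultivar or treatment the block also ended the calls on the total of XLOC_050605 for cold in Kongyu131 (0.0504) and Dongnong422 (0.0796), on the total of XLOC_052318 between cultivars in control (0.0614), on the class ratio of XLOC_017288 for cold in Kongyu131 (0.0507) and on that of XLOC_052318 between cultivars in cold leaves (0.0822). The numbers gave no sign of pairing: deviations from group means of same-numbered libraries correlated at −0.112 to 0.0757, with 0 of 18 pairs above 0.1. Libraries of different numbers correlated at −0.119 to 0.109. With 3 libraries a group a weak shared effect could go unseen, so pairing is not excluded.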
